A study of Mus musculus with 90 samples.

Results

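The genes described here are the mouse D-type cyclins Ccnd1, Ccnd2 and Ccnd3, their kinases Cdk4 and Cdk6, the inhibitors Cdkn2c, Cdkn1a and Cdkn1b, the retinoblastoma gene Rb1, and Myc. They were chosen by name as regulators of the G1 phase of the cell cycle, with earlier results of these data known. They are 10 of the 24543 genes in a table of RPKM (reads per kilobase, scaled to the alignments of each library). All 10 passed the filter on low values, at least 1 RPKM in at least 2 libraries, in each of 3 experiments. RNA of cultured bone marrow-derived macrophages (BMMs), from male and female mice, was sequenced in 90 libraries that form 38 groups. In the first experiment, Irf8-/- BMMs (labelled IRF8KO, called KO here) and Irf8+/+ BMMs (IRF8WT, called WT here) were sampled on day 0 in M-CSF, the growth factor of macrophages. They were sampled again on days 4 and 8 in M-CSF with RANKL, which drives their fusion into osteoclasts, the cells that resorb bone. Each of these groups had 3 libraries, apart from WT on day 4 with 2. In the second experiment, Irf8-/- BMMs transduced with human IRF8 constructs named hIRF8WT, hIRF8G388S or hIRF8379-389, or labelled mock, were sampled on the same days, with 3 libraries per group on days 0 and 4. On day 8 there were 3 libraries of hIRF8379-389 and 2 of each other kind. In the third experiment, macrophages of the same 4 kinds were untreated, treated with interferon-gamma (IFNg), or given IFNg together with the bacterial product lipopolysaccharide (LPS) for 1, 4 or 8 h, 2 libraries to a group. IRF8 is a transcription factor of the monocyte lineage, and its loss in mice is known to raise osteoclast formation. The strain and age of the mice, the vector and its promoter, the share of cells transduced and what the mock cells received are not given in the sources used here. Nor is it given whether libraries of a group came from separate animals or cultures, so each p-value here reflects library-to-library spread alone, which may be technical.

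D-type cyclins bind CDK4 or CDK6, and the complexes phosphorylate the RB protein. Phosphorylated RB releases E2F transcription factors, which drive the genes of DNA replication and the cyclin E and CDK2 step that follows. CDKN2C (p18INK4c) blocks CDK4 and CDK6 directly, whereas CDKN1A (p21) and CDKN1B (p27) block CDK2 complexes and also bind those of the D cyclins. MYC is a transcription factor of growth and ribosome production, and M-CSF is known to induce both Myc and D-type cyclins in macrophages. Osteoclasts form by fusion of precursors that leave the cell cycle, and IFNg and LPS are known to halt the proliferation of macrophages.

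The members lie on separate chromosomes of GRCm38 (mm10) apart from Ccnd2 and Cdkn1b on chromosome 6, at chr6:127125162-127152193 (minus strand) and chr6:134920401-134925513 (plus strand), and Ccnd3 and Cdkn1a on chromosome 17, at chr17:47505051-47599691 and chr17:29090976-29100727 (both plus). Ccnd1 lies at chr7:144929931-144939925, Cdkn2c at chr4:109660876-109667189 and Rb1 at chr14:73183673-73325822, all on the minus strand. Cdk4 at chr10:127063534-127067920, Cdk6 at chr5:3341485-3531008 and Myc at chr15:61985391-61990374 are on the plus strand. All values are for whole genes. Exons of Ccnd2, Ccnd3, Cdk4 and Rb1 overlap exons of opposite-strand genes of the table (9330179D12Rik, Bysl, Tspan31, and Rcbtb2 with Lpar6). Those of Ccnd1 share 1100 bases with opposite-strand LTO1, a name not in the table. Cdk6 and Cdkn1a also overlap opposite-strand genes whose names are not in it. The sources used here do not say whether the counting used strand, so reads of such partners may be shared.

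Promoter sequences from RefSeq (GRCm38.p6) were at hand for 6 of the members. Those of Cdk4 and Cdkn1a are shown because Cdk4 is a known MYC target and Cdkn1a the best known p53 target, and both genes changed in these data. Each is the 250 bases before a start of the gene, 5′ to 3′, on the plus strand. Capitals mark the letters CACGTG, the E-box to which MYC and MAX can bind, in Cdk4 (chr10:127063285-127063534), and the half-site pair CATGNNNNNNCATG of p53 in Cdkn1a (chr17:29090729-29090978).
Cdk4: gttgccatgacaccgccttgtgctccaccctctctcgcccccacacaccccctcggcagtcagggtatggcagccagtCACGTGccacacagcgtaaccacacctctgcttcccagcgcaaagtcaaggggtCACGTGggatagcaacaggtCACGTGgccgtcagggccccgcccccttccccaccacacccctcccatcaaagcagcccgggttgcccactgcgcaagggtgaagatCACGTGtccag
Cdkn1a: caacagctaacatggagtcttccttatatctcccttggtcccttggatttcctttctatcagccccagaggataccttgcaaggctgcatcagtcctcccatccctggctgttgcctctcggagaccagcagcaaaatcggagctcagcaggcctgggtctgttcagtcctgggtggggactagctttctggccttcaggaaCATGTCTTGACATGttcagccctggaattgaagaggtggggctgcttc
Cdk4 held 4 E-boxes, whose first bases lay 172, 118, 98 and 11 bases before the start. E-boxes were found in 7.15% of 32851 windows that ran from 250 bases before to 50 after a gene's start, and 4 or more in 8 windows (0.024%). The half-site pair, 48 bases before the Cdkn1a start shown, was found in 0.71% of windows. Cdkn1a has another window, at a start further downstream (chr17:29093519-29093818), which held 0 matches. Both motifs read the same on both strands, and these matches are a description of letters, not of binding.

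The libraries held 0.218 to 122 M alignments each (M for mega), with a median of 41.1 M and a second lowest of 15.6 M. The shallowest library was number 1 of untreated hIRF8WT macrophages. In 4 libraries of the first experiment (WT day 4 number 3, KO day 4 number 3, KO day 8 numbers 2 and 3) and in all mock libraries of days 0 and 8, longer genes read lower than in the other libraries (correlation of deviation with gene length from -0.511 to -0.241). All osteoclast libraries share 1 prefix in their library IDs except the 3 of hIRF8WT on day 4, so that this group cannot be told apart from its prefix. Macrophage conditions are spread unevenly over 3 prefixes. Reads on Irf8 remained in KO cells, with 32.5, 34.2 and 33.3 RPKM on day 0 against 74.0, 69.1 and 72.9 RPKM in WT (log2 fold change -1.09 ± 0.19 SE, adjusted p = 0.000292 by limma); whether they come from a transcript without its deleted part was not tested. In the tables' summed RPKM, 6 macrophage markers read 9507 to 9659 in KO cells on day 0, against 23560 to 24480 in WT cells, and 7 osteoclast markers 19.7 to 22.4 in KO and 23.4 to 29.8 in WT cells on day 0, and 12800 or more in every library of both genotypes on day 8. In the second experiment the osteoclast markers summed to 2444 to 3522 RPKM in construct libraries and 6598 to 8389 RPKM in mock libraries on day 8, far below those of the first. The mock libraries of day 0 stand apart from KO cells of the first experiment, which also lack mouse IRF8. Their macrophage markers summed to 20910 to 23510 RPKM, nearer to WT cells than to KO cells, whereas their reads on Irf8, at 24.0, 23.3 and 18.3 RPKM, lay below those of KO. Markers of neutrophil precursors lay farther from WT than KO cells did. They summed to 450 to 716 RPKM in these mock libraries, 99.2 to 104 RPKM in KO and 7.62 to 11.5 RPKM in WT libraries. Whether the labels of these mock libraries hold was not tested, and every construct over mock value of day 0 rests on them. In these bulk samples, fewer cells of a type and less RNA per cell cannot be told apart.

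Cultured in M-CSF alone, KO cells held more RNA of all 3 D-type cyclins, of both kinases, of Cdkn2c and of Myc than WT cells, and less of Cdkn1b. On day 0, 7 of the 10 genes were higher and 1 lower in KO, and 40.2% of all 11530 genes tested passed in either direction (limma on log2 of RPKM + 1, Benjamini-Hochberg adjusted over all genes). Ccnd1, the cyclin that couples growth factor signals to CDK4, had 237, 246 and 242 RPKM in KO cells, against 2.95, 2.78 and 2.13 RPKM in WT cells. The KO libraries lay closely together and far above every WT library (log2 fold change 6.07 ± 0.26 SE, adjusted p = 6.44e-11). Ccnd2, a paralogue that pairs with the same kinases, had 5.80, 5.81 and 6.40 RPKM in KO, against 0.382, 0.282 and 0.169 RPKM in WT. Its log2 fold change was 2.46 ± 0.41 (adjusted p = 0.000174), and 4.05 with a pseudocount of 0.1, since the WT level was below the pseudocount of 1. Ccnd3, the D cyclin that prevailed in WT cells, had 39.5, 44.1 and 38.9 RPKM in KO, against 17.7, 18.4 and 18.5 RPKM in WT. The groups did not overlap, and the log2 fold change was 1.12 ± 0.35 (adjusted p = 0.0169); without KO day 0 number 2 the adjusted p was 0.0545.

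**Figure D1:**
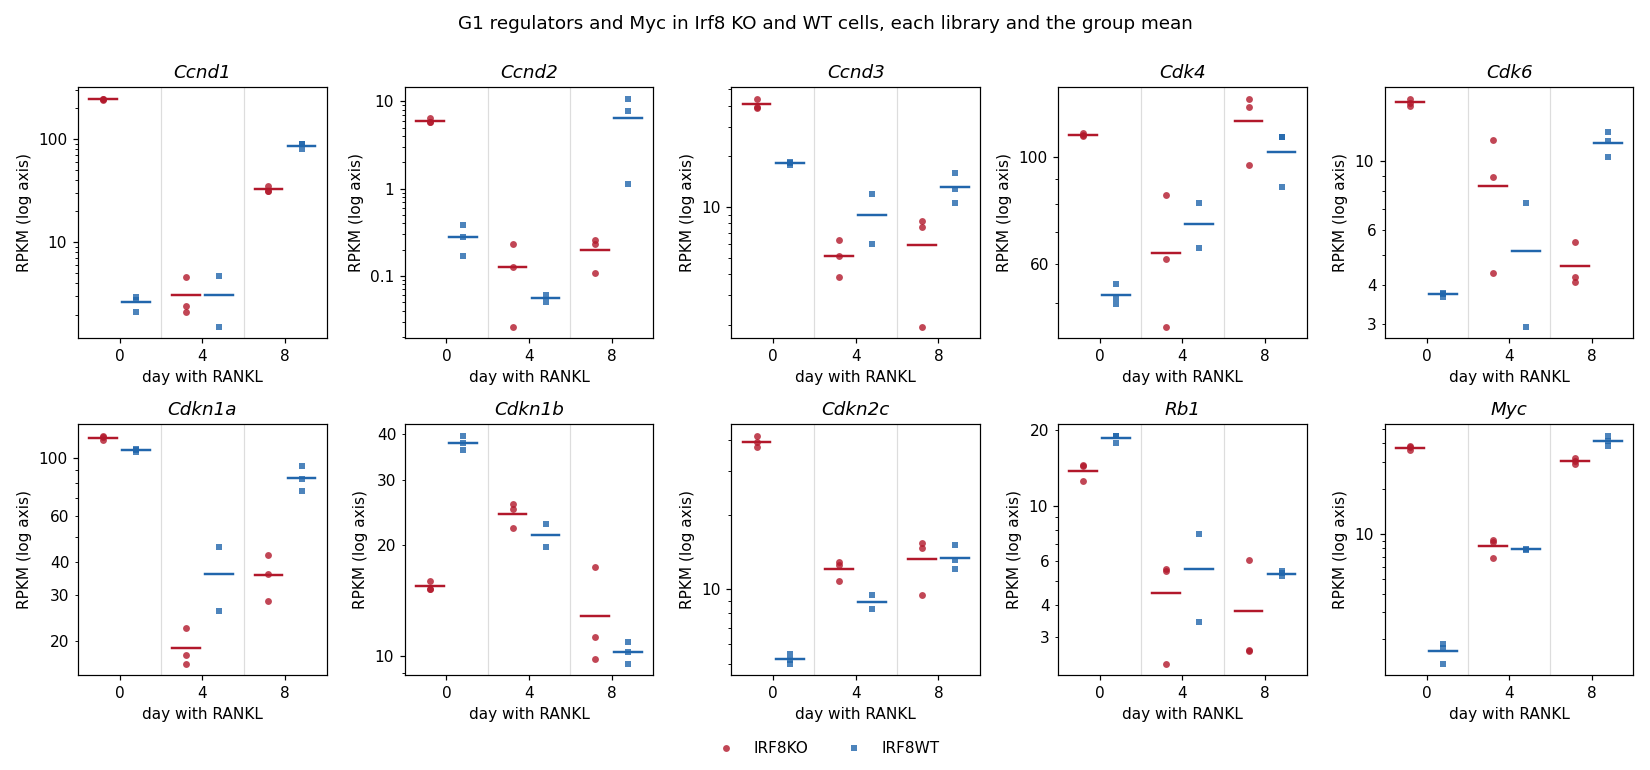
RPKM (log axis) of the 10 genes by day in KO and WT osteoclast cultures of the first experiment, KO left of WT; each point is 1 library and each bar a group mean. On day 0 the 3 KO libraries of Ccnd1 lie between 237 and 246 RPKM and the WT libraries below 3 RPKM, and on day 8 WT is above KO.

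Summed over the 3 D cyclins, the level was 288 ± 6.69 RPKM in KO and 21.1 ± 0.324 RPKM in WT cells on day 0 (SD, n = 3 each). Ccnd1 made up 83.8 ± 0.555% of that sum in KO and 12.4 ± 1.94% in WT, where Ccnd3 held 86.3%. The kinases were higher too. Cdk4 averaged 111 ± 0.869 RPKM in KO and 51.8 ± 2.55 RPKM in WT (1.09 ± 0.20, adjusted p = 0.000389), and Cdk6 15.5 ± 0.401 and 3.72 ± 0.0489 RPKM (1.80 ± 0.28, adjusted p = 9.08e-05). Of the inhibitors, Cdkn2c had 39.3, 41.8 and 37.7 RPKM in KO, against 5.46, 5.18 and 5.0 RPKM in WT (2.71 ± 0.16, adjusted p = 3.2e-09), its highest mean among all 38 groups. This inhibitor of CDK4 and CDK6 was thus higher together with its targets. Cdkn1b had 15.3, 16.0 and 15.2 RPKM in KO, against 39.5, 37.9 and 36.2 RPKM in WT (-1.24 ± 0.17, adjusted p = 2.29e-05), and the WT mean was the highest of all groups. Cdkn1a averaged 119 ± 2.35 RPKM in KO cells, against 106 ± 1.59 RPKM in WT cells, and did not pass (0.16 ± 0.20, adjusted p = 0.563), nor did Rb1 (13.8 ± 1.10 and 18.6 ± 0.647 RPKM, adjusted p = 0.311). Myc had 37.8, 35.9 and 38.2 RPKM in KO, against 1.86, 1.74 and 1.36 RPKM in WT (3.85 ± 0.13, adjusted p = 1.92e-11). In the authors' deposited table every one of the 10 genes had a q-value of at most 0.0017 on day 0, Cdkn1a (0.000667) and Rb1 (0.0017) included. The limma fit shares each gene's spread over all days of the experiment, and the part of this in the difference was not tested.

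Genes of replication, of the cyclin E and CDK2 step, of RB and E2F and of the MYC targets were mostly higher in KO on day 0, where 26.5% of all genes were higher. These lists were chosen with earlier results of these data known, so their counts are a description. In a list of genes of DNA replication and mitosis that E2F factors drive, 12 of 12 were higher in KO (median log2 fold change 3.67, against 0.12 over all genes tested), among them Rrm2, a subunit of ribonucleotide reductase (70.2 and 0.859 RPKM, KO and WT), and Mcm5 of the replicative helicase (57.7 and 1.28 RPKM). All 6 genes of the cyclin E and CDK2 list were higher, with Ccna2, the S-phase cyclin, at 72.5 RPKM in KO against 0.699 RPKM in WT (5.44) and Ccne1 at 15.3 against 0.607 RPKM (3.34). Of 12 RB and E2F genes, 9 were higher and none lower; the repressors E2f7 (2.62) and E2f8 (2.92) and the RB relative Rbl1 (2.15) rose, whereas Rbl2, the RB relative of resting cells, stood at 9.78 RPKM in KO cells and 17.1 RPKM in WT cells without passing (adjusted p = 0.0863). Of 8 MYC targets 7 were higher, led by Nop58 of ribosome production (2.59) and the polyamine enzyme Odc1 (2.22). In the network of MYC's partners and rivals, the repressors Mxd4 (-1.78) and Mxd1 (-1.34) were lower and Mxd3 (2.70) higher in KO. The other INK4 and CIP/KIP inhibitors split, with Cdkn2d at 25.4 RPKM in KO cells, against 6.24 RPKM in WT cells (1.87) and Cdkn2b higher (1.28), and Cdkn1c lower (-0.74). Of 11 tested p53 targets, 1 was higher (Aen, 1.06) and 3 lower, Btg2 (-1.95) and Trp53inp1 (-2.58) among them. Markers of neutrophil precursors moved with the genotype as well. The 6 of that list summed to 99.2 to 104 RPKM in KO and 7.62 to 11.5 RPKM in WT libraries on day 0, and their part in the cell cycle genes was not tested.

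After 4 days in RANKL the genotypes had drawn close. Ccnd1 had 4.66, 2.41 and 2.12 RPKM in KO, against 4.71 and 1.53 RPKM in WT, and Myc 8.88, 6.85 and 9.16 RPKM in KO, against 7.81 and 7.94 RPKM in WT. The libraries of both genes overlapped between the genotypes (log2 fold changes 0.04 and 0.06, adjusted p = 0.952 and 0.872). Cdkn1a alone among the 10 genes passed on day 4, lower in KO, where 13.4% of genes passed. It had 22.5, 17.7 and 16.4 RPKM in KO, against 45.8 and 26.0 RPKM in WT (-0.85 ± 0.22, adjusted p = 0.0158). That call was lost without WT day 4 number 1 (-0.46, adjusted p = 0.146), and with the 4 libraries of the gene length trend left out 5 members passed, Ccnd3 (-1.12), Cdk6 (0.43), Cdkn2c (0.44) and Rb1 (-0.42) besides Cdkn1a. In the authors' deposited table no member had a q-value under 0.363 on day 4.

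On day 8 the D cyclins, Cdk6, Cdkn1a and Myc were lower in KO than in WT cells. No member was higher and 6 were lower, where 31.2% of genes passed. Ccnd1 had 35.4, 31.7 and 31.3 RPKM in KO, against 89.7, 89.0 and 79.2 RPKM in WT (-1.36 ± 0.26, adjusted p = 0.002), so the order of the genotypes on day 0 was turned round. Ccnd2 had 0.258, 0.107 and 0.234 RPKM in KO, against 10.8, 1.12 and 7.67 RPKM in WT (-2.33 ± 0.41, adjusted p = 0.00134). Its 3 WT libraries followed the summed level of 6 stromal and osteoblast markers, 1.51 to 12.1 RPKM in KO, against 491, 73.1 and 363 RPKM in WT numbers 1, 2 and 3, and the part of such cells in Ccnd2 was not tested. Ccnd3 had 1.95, 7.65 and 8.25 RPKM in KO, against 15.9, 12.8 and 10.6 RPKM in WT (-1.17 ± 0.35, adjusted p = 0.021). Ccnd3 lost its call without WT number 1 (adjusted p = 0.0852) or number 2 (0.0549), stood at -0.64 without KO number 1, and at -2.24 without the libraries of the gene length trend. Cdk6 averaged 4.61 ± 0.780 RPKM in KO and 11.5 ± 1.06 RPKM in WT (-1.16 ± 0.28, adjusted p = 0.00822), and -0.64 with the gene length trend subtracted. Cdk4, the more abundant kinase, averaged 118 ± 19.3 RPKM in KO cells and 102 ± 13.6 RPKM in WT cells, a difference of 0.20 that missed the threshold (adjusted p = 0.432).

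Cdkn1a had 28.5, 42.6 and 36.1 RPKM in KO on day 8, against 92.6, 83.1 and 74.6 RPKM in WT (-1.21 ± 0.20, adjusted p = 0.000751), with no overlap. Cdkn1b (0.26, adjusted p = 0.228), Cdkn2c (-0.05, 0.841) and Rb1 (-0.48, 0.215) did not pass. Myc had 32.0, 29.4 and 30.3 RPKM in KO, against 44.9, 41.2 and 38.2 RPKM in WT (-0.42 ± 0.13, adjusted p = 0.0277). This smaller difference did not pass without WT number 1 (adjusted p = 0.114) or 2 (0.0714) or KO number 2 (0.068) or 3 (0.0623), nor with median-of-ratios scaling (-0.29, adjusted p = 0.0894). In the authors' deposited table on day 8 the q-value was 0.00328 for Ccnd1, 0.0309 for Ccnd2, 0.00956 for Cdk6, 0.0137 for Cdkn1a and 0.0168 for Myc, and 0.0997 for Ccnd3. Of the replication list, 7 of 12 were lower in KO and none higher (median -0.66, against -0.18 over all genes), with Top2a at 16.7 RPKM in KO cells, against 44.8 RPKM in WT cells. The cyclin E and CDK2 list had 5 of 6 lower and the RB and E2F list 5 of 12, led by E2f8 (-1.48). Of 11 p53 targets 6 were lower, Mdm2 (46.8 RPKM in KO cells, against 81.1 RPKM in WT cells, -0.81) among them. Cdkn1c, the third CIP/KIP inhibitor, went the other way, at 14.7 RPKM in KO against 4.63 RPKM in WT (1.47).

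**Figure D2:**
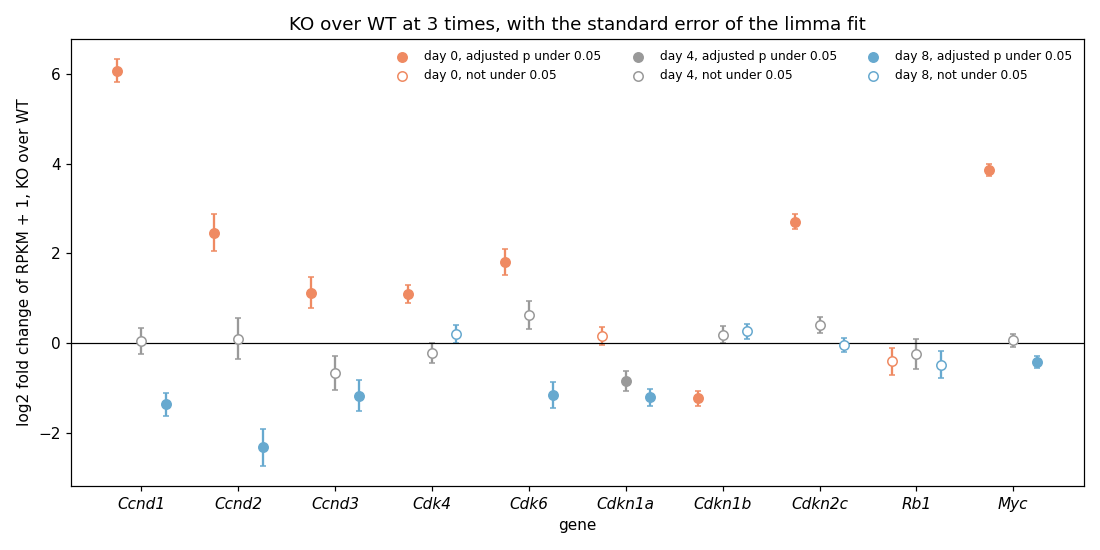
Log2 fold change of RPKM + 1, KO over WT, of the 10 genes on days 0, 4 and 8, with limma's standard errors as bars; filled points have an adjusted p under 0.05. Ccnd1 stands at 6.07 on day 0, at 0.04 on day 4 and at -1.36 on day 8.

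The effect of genotype differed between days by limma's interaction term. Against day 0 it differed on day 4 in 9 members, 1 higher and 8 lower (27.6% of genes; 1 and 6 with median-of-ratios scaling), and on day 8 in 9, 1 higher and 8 lower (37.8%; 1 and 7 with scaling), led by Ccnd1 (-6.03 and -7.44) and Myc (-3.80 and -4.28). The time courses show where the genotypes parted. In WT cells, day 4 over day 0, 2 members rose and 4 fell (43.2% of genes passed). Myc rose (1.75 ± 0.15, adjusted p = 5.49e-07), and Cdkn1a (-1.60, 5.96e-05) and Rb1 (-1.65, 0.00145) fell, while Ccnd1 stayed near 3 RPKM (0.08, adjusted p = 0.848). Cdkn2c (0.67) and Cdkn1b (-0.80) passed with all libraries but not without WT day 4 number 3 (adjusted p = 0.0945 and 0.0516). Ccnd3 (-1.0, adjusted p = 0.0478) was lost without that library (-0.57) and without any of the WT day 0 libraries. In KO cells, day 4 over day 0, 1 member rose and 9 fell, where 57.9% of genes passed and the median of all genes was -0.43. Ccnd1 fell by 5.95 on the log2 scale (adjusted p = 5.08e-11), Ccnd3 by 2.80, Ccnd2 by 2.64, Cdkn1a by 2.61, Myc by 2.05, Cdkn2c by 1.64 and Rb1 by 1.5, and Cdkn1b rose (0.62, adjusted p = 0.00529). Cdk4 (-0.85) and Cdk6 (-0.91) did not pass with median-of-ratios scaling (-0.31 and -0.42), and Cdk6 not without KO day 4 number 3 (-0.56, adjusted p = 0.061). The replication list fell with them, 12 of 12 (median -4.09).

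From day 4 to day 8 Ccnd1 and Myc rose in both genotypes. In WT cells 6 members rose and 1 fell (23.0% of genes passed), with Ccnd1 at 4.51 ± 0.29 (adjusted p = 4.16e-08), Ccnd2 at 2.51, Myc at 2.25, Cdkn1a at 1.24 and Cdkn1b at -0.99. Cdk6 (1.12) was lost without WT day 4 number 3 (0.58, adjusted p = 0.324) or WT day 8 number 1 (0.056), and Cdkn2c (0.54) without either WT day 4 library or WT day 8 number 1 or 2 (adjusted p = 0.0861 to 0.149). In KO cells 4 members rose and 1 fell (31.6% of genes; 4 and 2 with median-of-ratios scaling), with Ccnd1 at 3.10 ± 0.26, Myc at 1.77, Cdk4 at 0.93, Cdkn1a at 0.88 and Cdkn1b at -0.91. In both genotypes 12 of 12 genes of the replication list rose (median 2.34 in KO and 2.71 in WT), and in KO cells Ccnd1, Myc and that list were thus at their lowest on day 4. Ccnd2 (0.09) and Ccnd3 (0.04) of KO cells did not pass between days 4 and 8 (adjusted p = 0.89 and 0.942).

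In KO cells given back a human IRF8 construct, Ccnd1 was higher than in mock cells on every day with each of the 3 constructs. On day 0 Ccnd1 had 246, 287 and 272 RPKM with hIRF8WT, 228, 228 and 210 RPKM with hIRF8G388S, and 253, 268 and 284 RPKM with hIRF8379-389, against 28.8, 37.1 and 35.0 RPKM in mock cells. No construct library overlapped a mock library, and the log2 fold changes over mock were 2.97 ± 0.09, 2.69 ± 0.09 and 2.97 ± 0.09 (adjusted p = 1.54e-19, 9.84e-19 and 1.3e-19). On day 4 Ccnd1 averaged 156 ± 2.60, 205 ± 8.93 and 162 ± 5.89 RPKM in these 3 constructs and 69.7 ± 1.05 RPKM in mock (1.15, 1.54 and 1.21). On day 8 it averaged 221 ± 4.11, 243 ± 11.2 and 248 ± 8.21 RPKM, against 68.6 ± 12.0 RPKM in mock (1.69, 1.82 and 1.85). These 9 comparisons passed without each library in turn. In that of hIRF8WT on day 4 the construct and the library ID prefix cannot be told apart. Irf8-/- cells of the first experiment had 242 ± 4.29 RPKM on day 0, where mock cells of the second, whose markers are given above, had 33.6 ± 4.32 RPKM; the experiments were fitted apart and this difference was not tested.

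**Figure D3:**
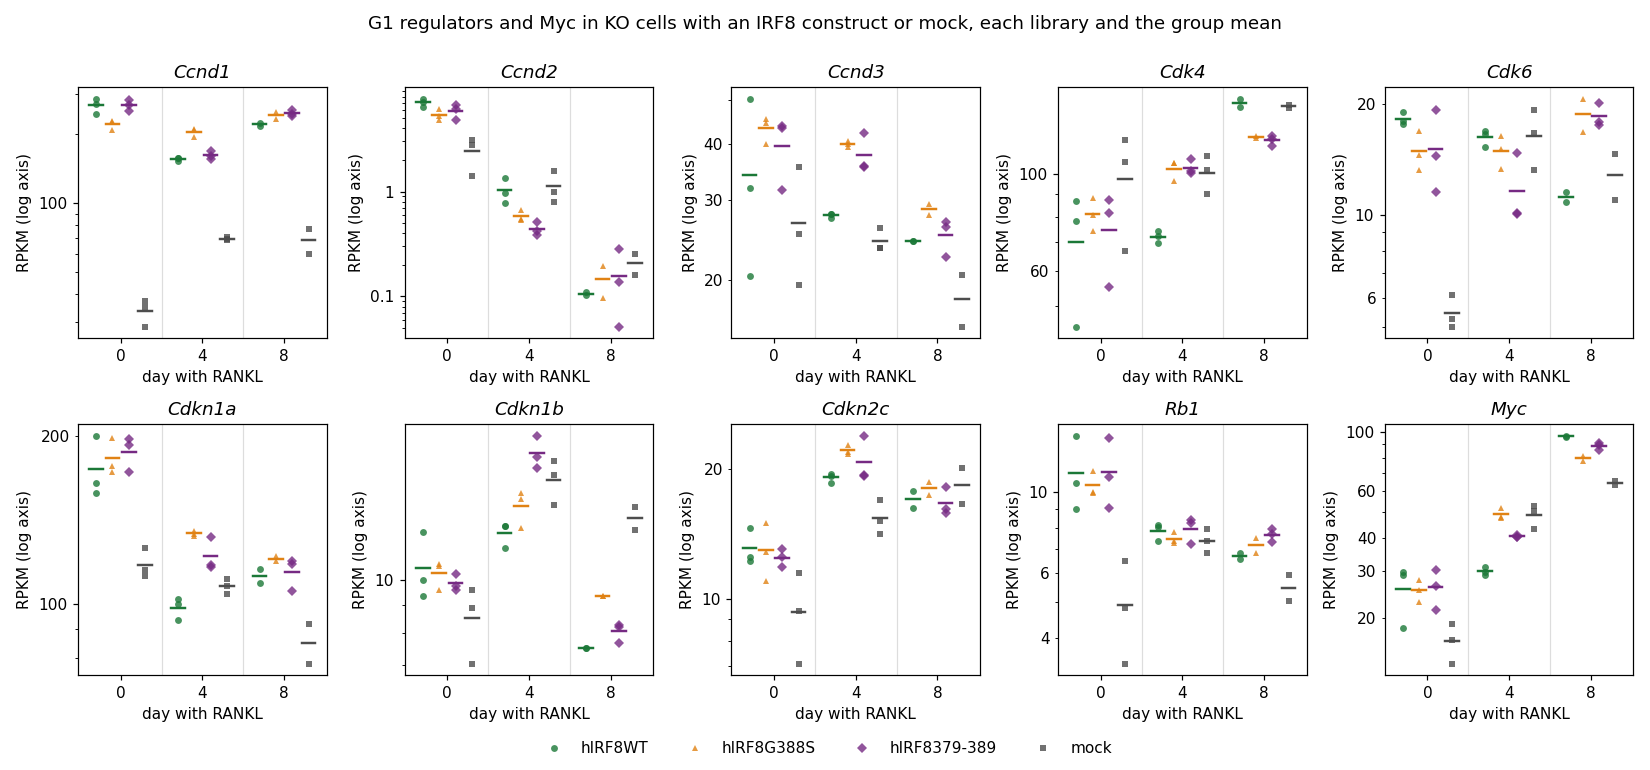
RPKM (log axis) of the 10 genes by day in Irf8-/- osteoclast cultures with hIRF8WT, hIRF8G388S, hIRF8379-389 or labelled mock, mock at the right of each day; each point is 1 library and each bar a group mean. Ccnd1 of the mock libraries lies between 28.8 and 77.1 RPKM, below every construct library.

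On day 0, 8 members were higher and 1 lower with hIRF8WT than in mock cells, where 74.7% of all genes passed, so that the count is near what most genes did. Relative to the shift of all genes (0.24 to 0.28, median-of-ratios scaling removing 0.229 to 0.25), Ccnd1, Ccnd2, Cdk6, Rb1, Cdkn1a and Myc remained higher. Cdk6 averaged 18.2 RPKM with hIRF8WT, 14.9 with hIRF8G388S and 15.1 with hIRF8379-389, against 5.46 RPKM in mock cells (1.57, 1.30 and 1.29); with the gene length trend subtracted, the value for hIRF8WT was 0.61. Ccnd2 had 7.20, 6.40 and 7.68 RPKM with hIRF8WT, against 2.80, 3.10 and 1.40 RPKM in mock (1.27 ± 0.15, and 0.69 with that trend subtracted). Rb1 had 10.6, 14.2 and 8.97 RPKM with hIRF8WT, against 3.40, 4.84 and 6.50 RPKM in mock (1.06 ± 0.15). Cdkn1a averaged 174, 182 and 187 RPKM in the 3 constructs and 118 RPKM in mock (0.56, 0.63 and 0.67), and Myc 25.7, 25.5 and 26.1 RPKM against 16.4 RPKM (0.60, 0.61 and 0.64). With median-of-ratios scaling the values of hIRF8WT were 0.24 for Cdkn1a and 0.30 for Myc.

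Cdkn2c (0.47 with hIRF8WT, 0.45 with hIRF8G388S, 0.41 with hIRF8379-389) did not pass after that scaling (0.18, 0.14 and 0.10), and was at 0.31, 0.28 and 0.24 without mock number 3. Cdkn1b, at 0.28 with hIRF8WT and 0.26 with hIRF8G388S, turned to -0.007 and -0.05 with the scaling, and each was lost without mock number 3, that of hIRF8WT also without hIRF8WT number 2 and that of hIRF8G388S without hIRF8G388S number 1 or 3. Cdk4 was lower with hIRF8WT (-0.48, adjusted p = 0.0217), and this was lost without hIRF8WT number 2 (-0.20), mock number 1 (-0.32) or mock number 2 (adjusted p = 0.0878), and stood at -0.73 without mock number 3; with scaling it passed in all 3 constructs (-0.80, -0.56 and -0.70). For hIRF8G388S, 9 members were higher and none lower (73.1% of genes; 6 and 1 with scaling), and for hIRF8379-389 8 and none (73.2%; 6 and 1). Of the replication list 10 of 12 were higher with hIRF8WT on day 0 (median 1.00, against 0.24 over all genes), and 10 of 12 also on day 4 and on day 8. Other CDK inhibitors fell, with Cdkn1c at 2.87 ± 0.432 RPKM with hIRF8WT and 19.5 ± 7.05 RPKM in mock (-2.35) and Cdkn2d at 11.5 ± 1.5 RPKM with hIRF8WT and 23.8 ± 3.5 RPKM in mock (-0.99). Neutrophil precursor markers summed to 133 to 258 RPKM in construct libraries and 450 to 716 RPKM in mock libraries on day 0, and macrophage markers to 5545 to 6938 and 20910 to 23510 RPKM; their part in these differences was not tested.

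On days 4 and 8 fewer members differed from mock than on day 0, and so did fewer of all genes. Of all genes 26.3 to 50.0% passed on these days, against 73.1 to 74.7% on day 0, so the drop is not particular to the members. With hIRF8WT on day 4, 2 were higher and 3 lower (47.5% of genes; 1 and 3 with scaling). Myc had 29.0, 29.8 and 31.2 RPKM with hIRF8WT, against 52.8, 50.3 and 43.2 RPKM in mock (-0.68 ± 0.13, adjusted p = 0.000196), whereas the values of hIRF8G388S (49.1 RPKM, 0.01) and hIRF8379-389 (40.6 RPKM, -0.26) did not pass. This hIRF8WT group has a library ID prefix of its own, and the construct and the prefix cannot be told apart. In the authors' deposited table of mock against hIRF8-WT on day 4 the q-value was 0.0231 for Ccnd1 and 0.000385 for Myc. It was 0.0221 for Cdkn1b, 0.0283 for Cdkn2c and 0.0565 for Cdk4. Cdk4 (-0.47), Cdkn1b (-0.29) and Cdkn2c (0.30) passed on day 4 with all libraries and were each lost without 1 library, Cdk4 without mock number 1 or 2 or any hIRF8WT library, Cdkn1b without mock number 1 or hIRF8WT number 3, and Cdkn2c without mock number 2 or 3 or any hIRF8WT library. With hIRF8G388S 4 members were higher and none lower (26.3% of genes): besides Ccnd1, Ccnd3 (0.69), Cdkn1a (0.31) and Cdkn2c (0.50). With hIRF8379-389, 3 were higher and 2 lower (30.0%; 4 and 2 with scaling), Ccnd3 (0.61), Cdkn2c (0.41), Ccnd2 (-0.54) and Cdk6 (-0.47) besides Ccnd1, and each of these 4 was lost without mock number 3. Ccnd3 and Cdk6 were also lost without mock number 2, Ccnd3, Cdk6 and Cdkn2c without hIRF8379-389 number 1, and Cdk6 without its number 2.

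On day 8 Cdkn1b had 7.53 and 7.52 RPKM with hIRF8WT, against 13.6 and 12.4 RPKM in mock cells (-0.71 ± 0.12, adjusted p = 3.48e-05), and it averaged 8.07 RPKM with hIRF8379-389 (-0.62, adjusted p = 3.23e-05). No construct library reached a mock library. Its value with hIRF8G388S, 9.37 RPKM (-0.43), was lost without mock number 1 (adjusted p = 0.0628). Counts on day 8 were 3 higher and 1 lower with hIRF8WT (30.6% of genes), 4 and 1 with hIRF8G388S (45.0%), and 5 and 1 with hIRF8379-389 (50.0%). Cdkn1a passed in all 3 (0.40, 0.50 and 0.42), and was lost without mock number 1 with hIRF8WT (0.28, adjusted p = 0.135) and hIRF8379-389 (0.0538), and also without hIRF8WT number 1 (0.0612). Myc averaged 96.3 RPKM with hIRF8WT and 88.6 RPKM with hIRF8379-389, against 64.3 RPKM in mock (0.57 and 0.45), and lost both calls without mock number 1 (adjusted p = 0.0669 and 0.0978), that of hIRF8WT also without hIRF8WT number 2 (0.0503). Cdk6 with hIRF8G388S (0.52) and hIRF8379-389 (0.51), and Ccnd3 with hIRF8G388S (0.64), were lost without mock number 1 as well, each also without number 2 of its own construct, and Ccnd3 also without hIRF8G388S number 1. Rb1 with hIRF8379-389 (0.42) was lost without any of the 5 libraries. In mock cells themselves, Ccnd1 (1.04), Cdk6 (1.42), Myc (1.52), Cdkn1b (0.78), Cdkn2c (0.69) and Rb1 (0.53) rose and Ccnd2 (-0.67) fell from day 0 to day 4 (73.5% of genes; 5 rose and 3 fell with scaling). From day 4 to day 8 Ccnd2 fell further (-0.80), with 1 member higher and 2 lower (32.0%), while Cdkn1a (-0.34) was lost without mock day 8 number 1 (-0.22, adjusted p = 0.253) and Myc (0.40) without either mock day 8 library or mock day 4 number 2 or 3. Rb1 stood at 0.33 from day 0 to day 4 without mock day 0 number 1.

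Some members differed between the constructs on day 4. On that day, hIRF8G388S over hIRF8WT had 4 members higher and none lower (27.7% of genes), Myc (0.69 ± 0.13, adjusted p = 0.00084), Cdkn1a (0.44 ± 0.09, adjusted p = 0.001), Ccnd1 (0.39 ± 0.09, adjusted p = 0.00243) and Cdk4 (0.51, adjusted p = 0.044), of which Cdk4 was lost without any 1 of the libraries compared. With hIRF8379-389 over hIRF8WT on day 4, 4 members were higher and 2 lower (32.2%), and Cdkn1b alone of them (0.45 ± 0.10, adjusted p = 0.00115) passed without each library. Cdkn1a (0.30) was lost without hIRF8379-389 number 1 and Myc (0.42) without hIRF8WT number 1, Ccnd2 (-0.49) and Cdk6 (-0.47) without either of these or hIRF8379-389 number 2, Cdk6 also without hIRF8WT number 2, and Cdk4 (0.52) without any of the 6 libraries. The hIRF8WT libraries of day 4 have a prefix of their own, and construct and prefix cannot be told apart there. Between hIRF8G388S and hIRF8379-389, which share a prefix, no member passed on day 4 (0.923% of genes; limma, 3 members at an unadjusted p under 0.05), where Ccnd1 was at 0.34 ± 0.09 (adjusted p = 0.0564), nor on day 0 (0% of genes; 1 member). For Ccnd1 the value of hIRF8G388S over hIRF8WT was -0.27 ± 0.09 on day 0 (adjusted p = 0.142), and its change between the days passed (0.66 ± 0.12, adjusted p = 0.0044), the 1 member to do so in that comparison (2.55% of genes). For hIRF8379-389 over hIRF8WT it was Cdkn1b (0.53, 5.59% of genes), lost without hIRF8379-389 day 4 number 1 or hIRF8WT day 4 number 3, and for hIRF8G388S over hIRF8379-389 no member (0.00879%; 2 at an unadjusted p under 0.05), with Ccnd1 at 0.61 (adjusted p = 0.0769). Averaged over days 0 and 4, hIRF8G388S over hIRF8WT had 4 members higher and 1 lower (33.6% of genes), led by Cdkn1a (0.25 ± 0.06, adjusted p = 0.00466) and Myc (0.35 ± 0.10, adjusted p = 0.00882), and hIRF8379-389 over hIRF8WT had 2 higher and 2 lower (24.7%; 4 and 2 with scaling), each lost without hIRF8379-389 day 0 number 1. Ccnd1 did not pass in either average (0.06 ± 0.06 and 0.03 ± 0.06), which for hIRF8G388S joins the opposite values of the days. On day 0 alone limma called no member in either comparison (0.765 and 0.0176% of genes), with 3 members of hIRF8G388S and 0 of hIRF8379-389 at an unadjusted p under 0.05.

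In macrophages most genes moved with IFNg and LPS, the members among them, and the D cyclins differed in direction. IFNg over untreated, averaged over the 4 kinds of cell, raised 4 members and lowered 5, where 71.9% of 11237 genes passed (4 and 4 with median-of-ratios scaling, Rb1 dropping out at -0.08). Over 8 libraries each, Myc ran from 0.381 to 0.799 RPKM with IFNg (median 0.539), against 3.46 to 6.16 RPKM untreated (median 4.49), with no overlap (-1.82 ± 0.07, adjusted p = 3.06e-16). Cdk4 ran from 31.7 to 38.1 RPKM with IFNg, against 56.5 to 78.0 RPKM untreated (-0.98 ± 0.05, adjusted p = 1.11e-14), also without overlap. Cdkn2c (-0.95) and Cdkn1b (-0.79) fell as well, whereas Ccnd2 (2.23), Ccnd3 (0.59), Ccnd1 (0.54) and Cdkn1a (0.51) rose on average. The Ccnd1 libraries overlapped, at 24.2 to 40.2 RPKM with IFNg and 12.55 to 54.0 RPKM untreated. With hIRF8379-389 Ccnd1 averaged 34.8 RPKM with IFNg and 37.1 RPKM untreated. Markers of other cells moved with the treatment. The stromal list summed to 1.75 to 4.31 RPKM with IFNg, against 13.4 to 113 RPKM untreated, and the macrophage list to 8293 to 9997 RPKM with IFNg, against 11390 to 23000 RPKM untreated; their part in these changes was not tested. Untreated Ccnd2 was at 0.625 to 2.11 RPKM in 7 libraries and at 11.6 RPKM in the shallow one, which was higher than its partner at 1.05 RPKM. Of the MYC target list 6 of 8 fell with IFNg and 1 rose, and of the replication list 9 of 12 fell and 2 rose (median -0.52, against -0.17 over all genes).

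**Figure D4:**
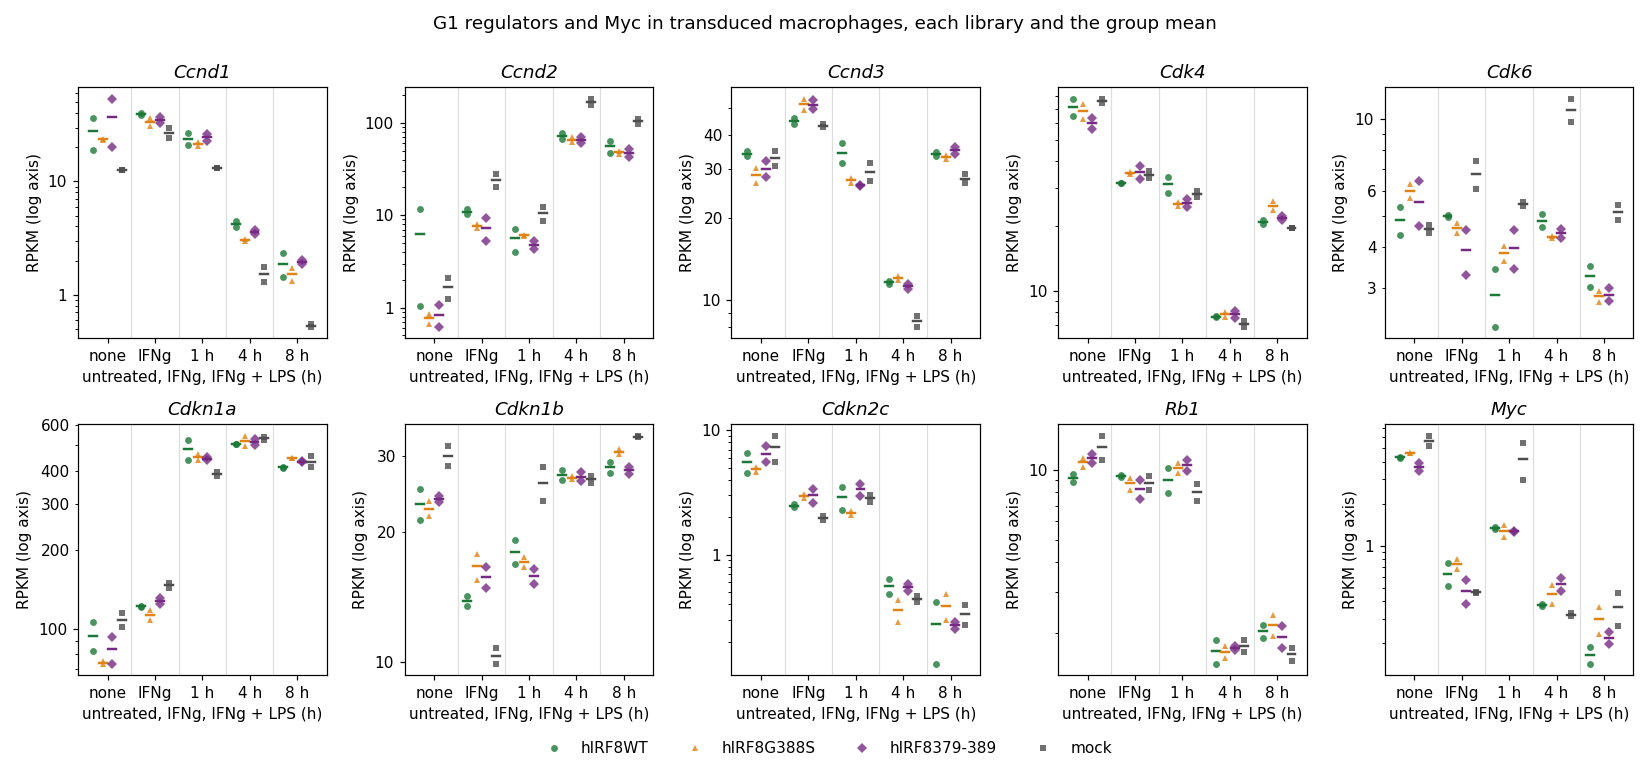
RPKM (log axis) of the 10 genes in macrophages with hIRF8WT, hIRF8G388S, hIRF8379-389 or labelled mock, untreated, with IFNg, and with IFNg and LPS for 1, 4 and 8 h; each point is 1 library and each bar a group mean. After 4 h of LPS Ccnd2 lies between 60.3 and 183 RPKM and Ccnd1 between 1.29 and 4.5 RPKM.

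With LPS for 1 h over IFNg alone, Cdkn1a ran from 382 to 525 RPKM (median 441), against 108 to 150 RPKM with IFNg (median 124). This inhibitor was higher in each LPS library than in every IFNg library (1.79 ± 0.05, adjusted p = 4.4e-19). It stayed at 497 to 544 RPKM after 4 h and 411 to 455 RPKM after 8 h, and of all 38 groups mock macrophages at 4 h held the most (532 RPKM). At 1 h 3 members were higher and 5 lower (60.1% of genes; 5 and 2 with scaling), but Ccnd1 (-0.70), Ccnd2 (-0.70), Cdk6 (-0.28) and Cdkn1b (0.41) did not pass with the library ID prefix as a term (-0.43, -0.47, -0.05 and 0.14). Most IFNg and LPS libraries differ in prefix. Myc, known as an immediate early gene, had 5.48 and 2.97 RPKM in mock cells and 1.16 to 1.40 RPKM in the 3 constructs at 1 h, against 0.381 to 0.799 RPKM with IFNg alone (0.83 ± 0.07 over all kinds).

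After 4 h of LPS 4 members were higher and 5 lower than with IFNg, where 89.2% of all genes passed (5 and 5 with scaling), so that the count is near what all genes did. Ccnd1 ran from 1.29 to 4.5 RPKM with 4 h of LPS (median 3.25), against 24.2 to 40.2 RPKM with IFNg (median 34.5), and Ccnd2 from 60.3 to 183 RPKM (median 70.6), against 5.23 to 28.2 RPKM (median 9.82). The 2 cyclins thus changed places without overlap (Ccnd1 -3.12 ± 0.14, adjusted p = 1.43e-16; Ccnd2 2.84 ± 0.22, adjusted p = 1.53e-11). Ccnd3 ran from 8.02 to 12.2 RPKM with LPS, against 42.6 to 54.2 RPKM (-2.05), Cdk4 from 6.85 to 8.08 RPKM, against 31.7 to 38.1 RPKM (-2.04), and Rb1 from 1.47 to 1.86 RPKM, against 7.50 to 9.53 RPKM (-1.86). The median of all genes was -0.74 here; relative to it, with median-of-ratios scaling, the values were -0.98 for Ccnd3, -0.99 for Cdk4, -1.0 for Rb1, -0.72 for Cdkn2c, 3.16 for Cdkn1a and 1.98 for Cdkn1b. Cdkn1b ran from 26.0 to 27.9 RPKM with LPS, against 9.93 to 17.9 RPKM with IFNg (0.90 ± 0.05, and 0.47 with the prefix as a term). Cdk6 passed narrowly (0.16, adjusted p = 0.0498), was at 1.12 with scaling and 0.94 with the prefix as a term, and was lost without any 1 of 12 libraries. Mock cells at 4 h and 1 h share a prefix, and at 4 h over 1 h Ccnd1 was at -2.50, Ccnd2 at 3.90, Ccnd3 at -1.69, Cdk4 at -1.86, Rb1 at -1.70 and Cdkn1b at 0.03 (adjusted p = 0.762).

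After 8 h the members split between those that came back and those that did not. Over IFNg alone 3 members were higher and 7 lower (85.2% of genes passed, again near the members' share; 4 and 3 with scaling). Within the 3 constructs, whose 4 h and 8 h libraries share a prefix, Ccnd3 (1.47, adjusted p = 2.92e-17) and Cdk4 (1.42, adjusted p = 1.07e-16) rose from 4 h to 8 h, whereas Ccnd1 fell further (-0.73, adjusted p = 0.00032) and Cdk6 fell (-0.47). Cdkn1a (-0.25) and Myc (-0.24) also fell, and Rb1 rose a little (0.18, adjusted p = 0.0373 by limma). Over all 8 libraries at 8 h, Ccnd3 ran from 26.7 to 36.2 RPKM and Cdk4 from 19.6 to 26.1 RPKM, above every 4 h library. Rb1 ran from 1.51 to 2.38 RPKM at 8 h, against 7.50 to 9.53 RPKM with IFNg, and Cdkn2c from 0.133 to 0.481 RPKM. Ccnd2 did not pass between 4 h and 8 h (-0.43, adjusted p = 0.155). Over IFNg, the 8 h values of Ccnd3 (-0.54), Cdk4 (-0.64) and Cdk6 (-0.43) turned to 0.13, 0.03 and 0.12 with scaling, and Cdk6 to 0.54 with the prefix as a term. At 4 h over IFNg, where 89.2% of all genes passed with a median of -0.74, the share of each list that passed was near that of all genes. Of the replication list 10 of 12 were lower at 4 h and 1 higher (median -1.10), of the RB and E2F list 8 of 11 lower and 1 higher, with Rbl2 (-2.03) and E2f2 (-2.01) among those that fell, and of 11 p53 targets 8 lower and 3 higher, Mdm2 (1.67) among those that rose. Ccne1, the cyclin of CDK2, rose (1.48) while Cdk2 itself fell (-2.19).

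Ccnd2 was higher and Ccnd1 lower in mock macrophages than in those with a construct. Averaged over the 5 conditions, 2 members were higher and 4 lower with hIRF8WT than in mock (35.7% of genes), 2 and 4 with hIRF8G388S (35.9%; 1 and 5 with scaling), and 2 and 4 with hIRF8379-389 (38.3%). Ccnd1 stood at 0.86 ± 0.12, 0.65 ± 0.12 and 0.87 ± 0.12 over mock (adjusted p = 5.89e-06, 0.000189 and 3.96e-06). After 8 h of LPS the mock libraries had 0.544 and 0.521 RPKM, the lowest Ccnd1 of any group. Ccnd2 after 4 h of LPS had 66.5 and 77.4 RPKM with hIRF8WT, 70.2 and 61.6 RPKM with hIRF8G388S, and 71.0 and 60.3 RPKM with hIRF8379-389, against 156 and 183 RPKM in mock. At 4 h the mock libraries have another library ID prefix than those of the constructs. At 8 h they share one, and Ccnd2 had 47.5 and 63.5 RPKM with hIRF8WT, 45.8 and 49.9 RPKM with hIRF8G388S, and 52.5 and 43.0 RPKM with hIRF8379-389, against 110 and 97.7 RPKM in mock, again with no overlap. With IFNg alone, where hIRF8WT and mock share a prefix, it had 11.6 and 10.3 RPKM with hIRF8WT, against 20.4 and 28.2 RPKM in mock, and over the 5 conditions the differences were -0.62, -1.05 and -1.12. Neutrophil precursor markers summed to 276 to 382 RPKM with a construct, against 544 to 626 RPKM in mock, untreated, and to 204 to 296 RPKM with a construct, against 434 to 526 RPKM in mock, with IFNg. After 4 h of LPS the order was the other way, 284 to 341 RPKM with a construct and 190 to 242 RPKM in mock, and after 8 h the libraries overlapped. Untreated macrophage markers summed to 11390 to 17320 RPKM with a construct and 22380 to 23000 RPKM in mock, and the part of these markers in the differences was not tested. The value of hIRF8WT did not pass with the prefix as a term (-0.52, adjusted p = 0.109), and was -0.35 without untreated hIRF8WT number 2, which leaves the shallow library alone in that group.

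Averaged over the 5 conditions, Cdk6 was lower in all 3 constructs (-0.52, -0.47 and -0.52). After 4 h of LPS it had 4.63 and 5.06 RPKM with hIRF8WT, against 9.77 and 11.6 RPKM in mock. After 8 h it had 3.02 and 3.51 RPKM against 5.42 and 4.86 RPKM. With IFNg and at each time of LPS its mock mean was the highest. Untreated, its mock mean was the lowest, at 4.57 RPKM against 4.86, 6.01 and 5.54 RPKM in the constructs. For hIRF8379-389 the averaged value was -0.31 with the prefix as a term. Myc was lower on average as well (-0.29, -0.22 and -0.32), but not in each condition. Its mock mean was the highest untreated (5.68 RPKM) and after 1 h (4.225 RPKM) and 8 h of LPS (0.361 RPKM). With IFNg (0.462 RPKM) and after 4 h of LPS (0.321 RPKM) the mock mean was the lowest. Ccnd3 (0.21, 0.14 and 0.14) and Cdkn1b (-0.13 with hIRF8WT and with hIRF8379-389) passed but not with the prefix as a term, and Cdkn1a with hIRF8G388S (-0.14) was lost without any 1 of 9 libraries. The response of Cdkn1b to IFNg differed between hIRF8WT and mock cells (interaction 0.75 ± 0.13, adjusted p = 0.000493). Cdkn1b had 13.5 and 14.2 RPKM with IFNg and 21.3 and 25.2 RPKM untreated in hIRF8WT cells, and 9.93 and 10.8 RPKM with IFNg and 31.6 and 28.5 RPKM untreated in mock cells. It fell in both, further in mock. In this interaction 2 members were higher and 1 lower (25.5% of genes; 1 and 1 with scaling), and in that of hIRF8WT with 4 h of LPS 1 and 2 (24.4%; 1 and 1 with scaling).

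Across all 38 groups each gene had its own order of levels. Ccnd1 spanned from 0.533 RPKM in mock macrophages after 8 h of LPS to 268 RPKM in hIRF8WT and hIRF8379-389 cells on day 0, whose libraries overlap. Ccnd2 spanned from 0.0554 RPKM in WT cells on day 4 to 170 RPKM in mock macrophages after 4 h of LPS, far above the next groups. Myc ran from 0.165 RPKM in hIRF8WT macrophages after 8 h of LPS to 96.3 RPKM in hIRF8WT cultures with RANKL on day 8. Cdk4 was lowest in mock macrophages after 4 h of LPS (7.04 RPKM) and highest on day 8 with hIRF8WT (146 RPKM) and in mock cells (143 RPKM), which overlap. Cdk6 ran from 2.82 to 18.7 RPKM and Cdkn1b from 7.53 to 37.9 RPKM. Rb1 was lowest in mock macrophages after 8 h of LPS (1.62 RPKM) and highest in KO and WT cells on day 0 (13.8 and 18.6 RPKM).

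The D cyclin in the lead changed with the state of the cells. In osteoclast cultures with a construct Ccnd1 made up 80.9 to 90.7% of the summed RPKM of the 3 cyclins, and in mock cells 54.1, 73.2 and 78.9% on days 0, 4 and 8. In macrophages after 4 h of LPS Ccnd2 made up 81.9% with hIRF8WT, 81.3% with hIRF8G388S and 81.5% with hIRF8379-389, against 94.5% in mock cells, and after 8 h 60.4, 58.0 and 56.1% against 78.6%. Untreated, its share was 1.96% in 1 hIRF8WT library and 13.9% in the shallow one, 1.21 to 1.57% in the libraries of the other constructs, and 2.81 and 4.23% in mock. Cdk4 was the more abundant kinase in all groups but mock macrophages after 4 h of LPS, where it held 39.9 ± 3.8% of the summed RPKM of Cdk4 and Cdk6 (SD, n = 2).

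**Figure D5:**
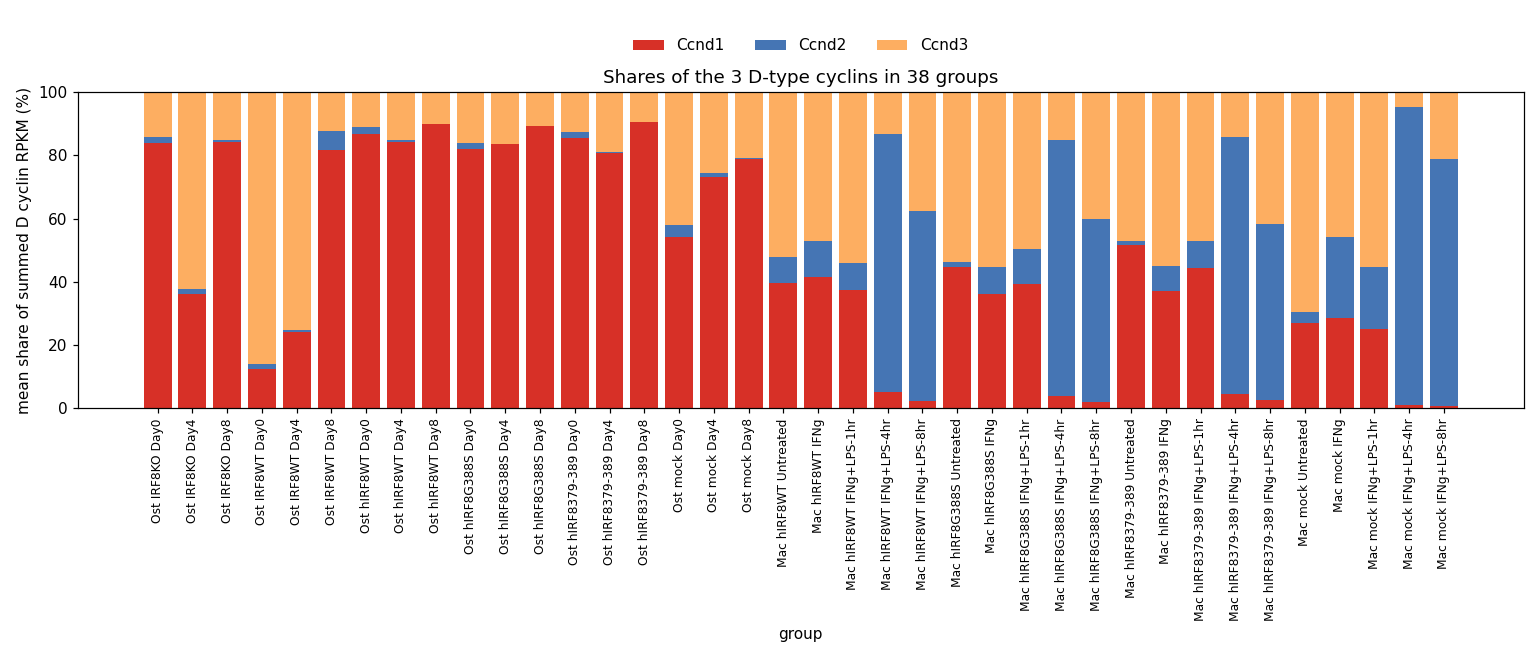
Share (%) of Ccnd1, Ccnd2 and Ccnd3 in their summed RPKM in each group, as group means of the libraries' shares. Ccnd1 holds 83.8% in KO cells on day 0, Ccnd3 86.3% in WT cells on that day, and Ccnd2 94.5% in mock macrophages after 4 h of LPS.

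The genes whose group means ran most like a member's, by Pearson correlation of mean log2(RPKM + 1) over the 38 groups among 10517 genes, were Mcm5 (0.96) and Mcm2 (0.956) of the replicative helicase and Haus5 (0.95) for Ccnd1. For Myc they were Dnph1, Ahcy and Cdc20 (0.982 each), for Cdk4 Mbd3 (0.992), Gpn3 (0.984) and Cinp (0.981), and for Cdkn2c Xrcc6, Gtf2ird1 and Haus4 (0.975 each). Ccnd2 was near to Tarm1 (0.944) and Slc28a2 (0.939). For Cdkn1a they were Nlrp3 (0.933), H3f3b (0.922) and Ppp1r15b (0.915), and for Rb1 Fli1 (0.976), Lrp5 (0.971) and Pan3 (0.97). Cdk6 was nearest to Kif5b (0.936), Cdkn1b to Hbp1 (0.886) and Ccnd3 to Bid (0.862), the weakest likeness of the 10. Between members, Cdk4 and Myc ran together over 18 groups of the osteoclast cultures (0.86) and 20 macrophage groups (0.71), as did Cdkn2c and Myc (0.73 and 0.85), and Ccnd1 and Cdkn1b ran oppositely in both (-0.76 and -0.76). Ccnd1 and Ccnd2 stood at 0.43 over the osteoclast culture groups and -0.84 over macrophage groups, and Ccnd3 and Cdkn1a at 0.94 and -0.57. These values share libraries, scaling and treatments between genes and are given as a description.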

How the data were processed

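RNA of 90 libraries was measured by sequencing. Gene values in RPKM were deposited by the authors, who mapped reads to mm10 with Tophat and calculated levels with Partek, per the file headers. The submitters' processing notes name, without roles, TopHat2 2.1.0, bcl2fastq 2.17.1, CASAVA 1.8.4, deepTools and Partek. q-values were taken from the authors' deposited tables. The annotation behind the RPKM values and their handling of reads that map to several places are not given in the sources used here. Depth was 0.218 to 122 M alignments per library; gene counts were not used, and errors of levels are SDs over a group's libraries.

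Groups and replicate numbers came from the sample titles. Each experiment (17, 33 and 40 libraries; 11530, 11374 and 11237 genes) was fitted separately with limma 3.58.1 in R 4.3.3 on log2(RPKM + 1), with one mean per group and a mean-variance trend, over genes that reached 1 RPKM in 2 or more libraries. This scale understates the change of genes near or below 1 RPKM. Tests were two-sided, adjusted by Benjamini-Hochberg over all genes in each of 31 contrasts at 0.05. All groups of an experiment share 1 spread per gene, those of 3 libraries as well as those of 2. In the first experiment, libraries lay closer to their group mean on day 0 (SD of the deviations over genes 0.0542 to 0.0765) than on days 4 and 8 (0.138 to 0.502). The fit was tested on simulated data. The members and the gene lists were chosen with earlier results of these data known. All 10 members are given; from each pathway list up to 3 genes of the smallest adjusted p and, of those that missed the threshold, the most abundant 1 could be named, and for each member up to 3 of the genes most like it; 1 such gene is not reported here. Pathway lists were cyclin E and CDK2, other CDK inhibitors, RB and E2F, the MYC and MAX network, G1 protein turnover, p53 targets, E2F-driven replication genes and MYC targets. Of 7 turnover genes 3 were higher in KO on day 0, Skp2 (1.13) among them, where 26.5% of all genes were higher.

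Same-numbered libraries deviated together most in KO and WT on day 4 (correlations 0.871 for number 1 and 0.899 for number 3). Both number 3 libraries there show the gene length trend. All 3 pairs of hIRF8379-389 and mock also deviated together, on day 0 (0.412, 0.329 and 0.609) and on day 4 (0.347, 0.187 and 0.208). These links were found in the data and are not stated in the labels. Alternatives were a pseudocount of 0.1, no filter, median-of-ratios scaling, the groups of a contrast alone, a replicate block and leaving out each library. Subtraction of the gene length trend, leaving out 4 libraries, the library ID prefix as a term or within one prefix, day 0 alone, the constructs against each other on each day and crossed numbers were chosen after the data were seen. Lengths from GENCODE M21 were matched for 97.3% of genes, and promoter sequences from RefSeq.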

Additional observations from a re-analysis of the deposited data

Results flagged for a closer look

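The effect of genotype differed between days in most members, by the interaction term of limma with Benjamini-Hochberg adjustment over all genes. Against day 0, the KO over WT difference on day 4 was lower in Ccnd1 by -6.03, in Myc by -3.80, in Ccnd2 by -2.36, in Cdkn2c by -2.31, in Ccnd3 by -1.79, in Cdk4 by -1.32, in Cdk6 by -1.19 and in Cdkn1a by -1.01, and higher in Cdkn1b by 1.42 (log2 units, adjusted p from 6.31e-09 to 0.048). That is 1 member higher and 8 lower, where 27.6% of genes passed (1 and 6 with median-of-ratios scaling, Cdk6 and Cdkn1a not passing at adjusted p = 0.115 and 0.0625). Without WT day 4 number 1 the calls of Ccnd3 (-1.36), Cdk6 (-0.65) and Cdkn1a (-0.62) were lost, and that of Cdk6 also without any day 0 library or KO day 4 number 2 or 3.

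On day 8 the same interaction was -7.44 for Ccnd1, -4.78 for Ccnd2, -4.28 for Myc, -2.96 for Cdk6, -2.75 for Cdkn2c, -2.30 for Ccnd3, -1.37 for Cdkn1a, -0.88 for Cdk4 and 1.5 for Cdkn1b (adjusted p from 5.13e-10 to 0.0225), 1 higher and 8 lower where 37.8% of genes passed (1 and 7 with scaling, Cdk4 not passing at adjusted p = 0.201). Cdk4 was lost without WT day 0 number 3 or WT day 8 number 1 or 2 (adjusted p = 0.0509 to 0.0561). Rb1 passed in neither interaction.

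Between days 0 and 4 the difference of hIRF8G388S over hIRF8WT changed in Ccnd1 (0.66, adjusted p = 0.0044, where 2.55% of genes passed), and that of hIRF8379-389 over hIRF8WT in Cdkn1b (0.53, adjusted p = 0.0238, where 5.59% passed), by limma's interaction term. The call of Cdkn1b was lost without hIRF8379-389 day 4 number 1 or hIRF8WT day 4 number 3. The hIRF8WT libraries of day 4 have a prefix of their own, and construct and prefix cannot be told apart there.

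In macrophages, the response to IFNg differed between hIRF8WT and mock cells in Ccnd2 (-2.0), Cdkn1b (0.75) and Rb1 (0.48). The value of Ccnd2 was -0.69 (adjusted p = 0.21) without the shallow untreated hIRF8WT library and -3.31 without its partner, and Rb1 was lost without any 1 of 6 libraries. The response to LPS for 4 h differed in Cdk6 (-0.63), Ccnd3 (0.37) and Cdkn1b (-0.35). Those calls were lost without any 1 of 5 libraries in Cdk6 and 7 in Ccnd3 and Cdkn1b.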

How the results depend on the processing

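With changes of 1 choice at a time, 438 of 493 counts of members called stayed within 1.5 times the value reported, 5 rose beyond it and 50 fell below it. Of 4930 results of single members, 4545 kept their side of the threshold, 75 came to pass, 297 no longer passed and 13 changed sign where either value passed. Changes of sign between values that both missed the threshold are counted among the 4545. The causes were not tested.

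For KO over WT on day 4, 1 member passed, against 2 with the gene length trend subtracted, 0 with its 2 groups fitted alone and 5 without the 4 libraries of that trend. Fitted as groups alone, WT day 8 over day 4 had 4, KO day 8 over day 4 had 2, hIRF8WT over mock on day 0 had 5, mock day 8 over day 4 had 6, hIRF8379-389 over hIRF8WT had 1 and the hIRF8WT by IFNg interaction 0. Without the filter, 3 members passed for hIRF8WT over mock on day 4, for hIRF8G388S over mock on day 8 and for hIRF8379-389 over mock on day 4, 1 in the IFNg interaction (1 also with pseudocount 0.1) and 0 in the LPS interaction, which had 1 with the length trend subtracted. On day 0 alone neither altered construct differed from hIRF8WT in any called member (0 and 0), and hIRF8379-389 over hIRF8WT had 1 with the length trend subtracted. Where limma called 0, members at an unadjusted p under 0.05 were 1 for KO over WT on day 4, 3 and 0 for the altered constructs on day 0 alone, 5 for hIRF8379-389 over hIRF8WT without hIRF8379-389 day 0 number 1, 1 in the IFNg interaction and 3 in the LPS interaction (2 to 3 without 1 library). With the library ID prefix as a term, 4 members passed for LPS 1 h and 3 for hIRF8WT over mock in macrophages, and within one prefix 4 for LPS 1 h.

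Leaving out 1 library at a time gave 1 to 2 members for KO over WT on day 4 (1 with all libraries), 3 to 6 for WT day 4 over day 0 (6), 2 to 4 for hIRF8WT over mock on day 4 (5) and day 8 (4), 2 to 5 for hIRF8G388S on day 8 (5), 1 to 5 for hIRF8379-389 on day 4 (5) and 2 to 5 on day 8 (6), 3 to 5 and 0 to 6 for hIRF8G388S and hIRF8379-389 over hIRF8WT (5 and 4), 1 to 3 for mock day 8 over day 4 (3), and 1 to 6 and 0 to 2 for the interactions with IFNg and LPS (3 each). Where 1 library was left in a group, it was assumed to vary like the others. Of 195 member results that passed, 144 passed without each library and 51 did not.

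Without the 4 libraries Rb1 turned to -0.46 in WT day 8 over day 4, Ccnd3 to -1.01 in KO day 8 over day 4, and Rb1 to 0.56 in the day 8 interaction. Scaling turned Cdkn1b to -0.007 and -0.05 with hIRF8WT and hIRF8G388S on day 0, Myc to 0.24 at LPS 4 h, and Ccnd3, Cdk4 and Cdk6 to 0.13, 0.03 and 0.12 at LPS 8 h. Cdk6 turned to -0.009 with hIRF8379-389 on day 8 (length trend subtracted), to 0.02 at LPS 1 h within one prefix and to 0.54 at LPS 8 h with the prefix as a term, and Cdkn1b to -0.079 with hIRF8379-389 over hIRF8WT on day 0 alone. A replicate block moved no count of members called beyond 1.5 times, with 8 for KO over WT on day 0 under the block, nor did the crossed pairing of hIRF8WT and mock on day 8. Of 152 shares of cyclins and kinases, 15 moved by more than their SD, by at most 1.21 percentage points. Genes near or below 1 RPKM, Ccnd2 and Cdkn2c at times, are limited by depth.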

Other observations

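Mycl, Mxd1 and Cdkn2d differed between hIRF8WT and mock macrophages in their response to 4 h of LPS. Mycl, a MYC family member of dendritic cells and macrophages, averaged 2.67 ± 0.128 RPKM with hIRF8WT, 2.70 ± 0.225 RPKM with hIRF8G388S and 2.32 ± 0.151 RPKM with hIRF8379-389 after 4 h of LPS, against 14.3 ± 0.912 RPKM in mock macrophages (SD, n = 2 each). Its interaction of hIRF8WT with 4 h of LPS was -1.94 ± 0.15 (adjusted p = 2.43e-09 by limma). Mxd1, which competes with MYC for MAX, averaged 134 ± 12.8 RPKM with hIRF8WT against 48.8 ± 5.51 RPKM in mock at 4 h (interaction 1.66, adjusted p = 7.59e-05). Cdkn2d (p19INK4d) averaged 17.4 ± 1.58 RPKM with hIRF8WT and 4.33 ± 0.388 RPKM in mock (interaction 1.72, adjusted p = 2.22e-06), a gap that had mostly closed at 8 h (23.9 ± 0.66 and 19.5 ± 1.36 RPKM). E2f8 (-1.41) and Odc1 (0.82) differed as well. At 4 h the mock libraries and those of the constructs have different library ID prefixes, and construct and prefix cannot be told apart there.

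Cdkn1c (p57) stood at opposite ends of its range in both sets of cells without mouse IRF8 on day 0. It averaged 0.989 ± 0.0918 RPKM in KO cells of the first experiment and 19.5 ± 7.05 RPKM in mock cells of the second. In KO cells it rose by day 8 to 14.7 ± 1.79 RPKM, whereas in mock cells it was at 5.42 ± 0.799 RPKM on day 8. The difference between the experiments was not tested.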
